A study of Mus musculus with 16 samples.

Results

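Collagens are the proteins of the extracellular matrix whose chains wind in triple helices. Fibrillar collagens such as types I, III and V form the cable-like fibrils of scar and connective tissue, type IV forms the sheet-like network of basement membranes around blood vessels, and further types form beaded filaments, sit on the surface of fibrils, or cross the cell membrane. In the healthy spinal cord fibrillar collagen is largely a feature of the meninges and vessel walls, and after injury stromal cells of these sites lay it down in the lesion core. The collagen genes were taken as every gene of the deposited matrix whose symbol has the form Col, a number, the letter a and a number, which gave 44 of 55487 genes. All 44 had at least 1 unique molecular identifier (UMI, a tag that counts a captured RNA molecule once), against 41193 of the 55487 genes.

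Cells were dissociated from the mouse spinal cord around a dorsal column lesion at level C5, or from uninjured cord (labelled Sham), and sequenced as single cells from 16 mice of 8-10 weeks. The mice fall into 8 groups of 2: wild type (WT, genotype Ryk+/+,GFAPcreERT2) and Ryk cKO (genotype Rykfl/fl,GFAPcreERT2), each uninjured or taken 1 d, 7 d or 14 d post injury. Ryk is a receptor for Wnt proteins, and the floxed gene is removed by a Cre recombinase that the GFAP promoter expresses in astrocytes and that tamoxifen activates, so mice of both genotypes carry Cre and the fibroblasts, vessels and Schwann cells described here were not its target. The file holds 18203 cells in 17 clusters named by the authors, and the questions put to it here are which clusters carry collagen RNA, how the levels stand at each time after the injury, and whether they differ between Ryk cKO and WT.

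Depth differed between libraries. Of the 16 mice, 15 had 208 to 1845 cells (median 1223) and 536263 to 9008729 UMIs (median 3032957), while WT 1 d replicate 2 holds 1 cell with 266 UMIs and enters no value. The median number of UMIs per cell was 414 to 548 in 4 libraries (WT 1 d, WT 7 d, cKO 1 d and cKO 7 d, each replicate 1) and 1040.5 to 3637 in the other 11. These 4 low-depth libraries also share cell barcodes: 119 barcodes occur in more than 1 of them, in 335 cells, which is 6.40% of their 5237 cells, with 28 to 115 shared in each of their 6 pairs against at most 4 in each of the 114 other pairs of mice. Of the 335 cells 169 are endothelial cells, 5 pericytes, 2 fibroblasts and 0 Schwann cells. In 6 mice, all of replicate 2, the condition written in the cell names differs from that of the sample title, and the title, which the deposited cell table follows, was used. Ryk itself read 109 ± 30.8 CPM (the UMIs of a gene as a share of all UMIs of a cluster in a mouse, on the usual counts-per-mega scale; SD, n = 7 mice) in the astrocyte clusters of WT and 87.0 ± 34.5 (n = 8) in those of cKO, with overlapping ranges of 54.0 to 157 and 23.002 to 123. By the genotypes in the cell names the means were 114 (n = 6) and 85.9 (n = 9), and since the deleted exon is not given and the 3′ tags may lie outside it, these values do not check the deletion.

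The fibroblast, pericyte and endothelial clusters carry the markers of their names. In the 267 fibroblasts all 6 fibroblast markers were detected, with a summed level of 12060 CPM led by Dcn at 5943, and the summed levels of the lists for pericytes (458), smooth muscle (104) and endothelial cells (725) were lower. The 836 pericytes carried their own list at 14064, led by Rgs5 at 5473, beside smooth muscle markers at 3539, led by Acta2 at 1246, and endothelial markers at 5435. The 4201 endothelial cells carried endothelial markers at 15039, led by Flt1 at 6282, and pericyte markers at 1046, mostly Rgs5 at 908. The 207 Schwann cells carried fibroblast markers at 39.5, with Igf2 and Slc6a13 at 0, and had no UMI of Notch3, Acta2 or Cnn1. Pericytes also carried fibroblast markers at 1051, led by Mgp at 966, and endothelial cells carried red blood cell markers at 2369. The pericyte cluster thus holds smooth muscle RNA and the vascular clusters hold RNA of each other and of further cell types. The part of these in the collagen levels was not tested.

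Collagen levels were highest in fibroblasts. The 44 genes held 85729 UMIs, 0.161% of all, and 50.4% of these came from fibroblasts, which are 1.47% of the cells. Neurons held 13.03%, endothelial cells 12.8% and pericytes 7.25%. Without cKO 7 d replicate 2 the shares were 21.8% in fibroblasts, 22.5% in neurons, 21.02% in endothelial cells and 10.4% in pericytes, so the lead of fibroblasts in UMIs rests on this mouse. Levels below are CPM of a cluster in a mouse, averaged over the mice with at least 10 cells of it, and since a UMI counts a molecule by its 3′ end, levels of different genes were compared without scaling by length. The summed level of all collagens in fibroblasts was 14462 CPM ± 9592 (SD, n = 9 mice), with a lowest value of 4017, a median of 11967 and a highest of 33699. Schwann cells followed at 2604 ± 846 (n = 5), then pericytes at 2044 ± 391 (n = 15), neurons at 1278 ± 331 (n = 15), endothelial cells at 1027 ± 181 (n = 15), oligodendrocyte precursor cells (OPCs) at 907 ± 192 (n = 14) and ependymal cells (labelled Unk) at 879 ± 155 (n = 10). The lowest fibroblast value lay above the highest value of each of these clusters, Schwann cells at 3813 included, whereas Schwann cells and pericytes overlapped and so did neighbours further down the order. Myeloid cells were lowest at 105 ± 61.6 (n = 5).

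A single mouse supplied most of the fibroblast molecules. The 72 fibroblasts of cKO 7 d replicate 2 hold 77.6% of the fibroblast collagen UMIs and 39.1% of all collagen UMIs, and that library has 41266 collagen UMIs, or 4581 CPM, against 570 to 1436 CPM in the other 14. The means over mice give this mouse the weight of any other.

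**Figure D1:**
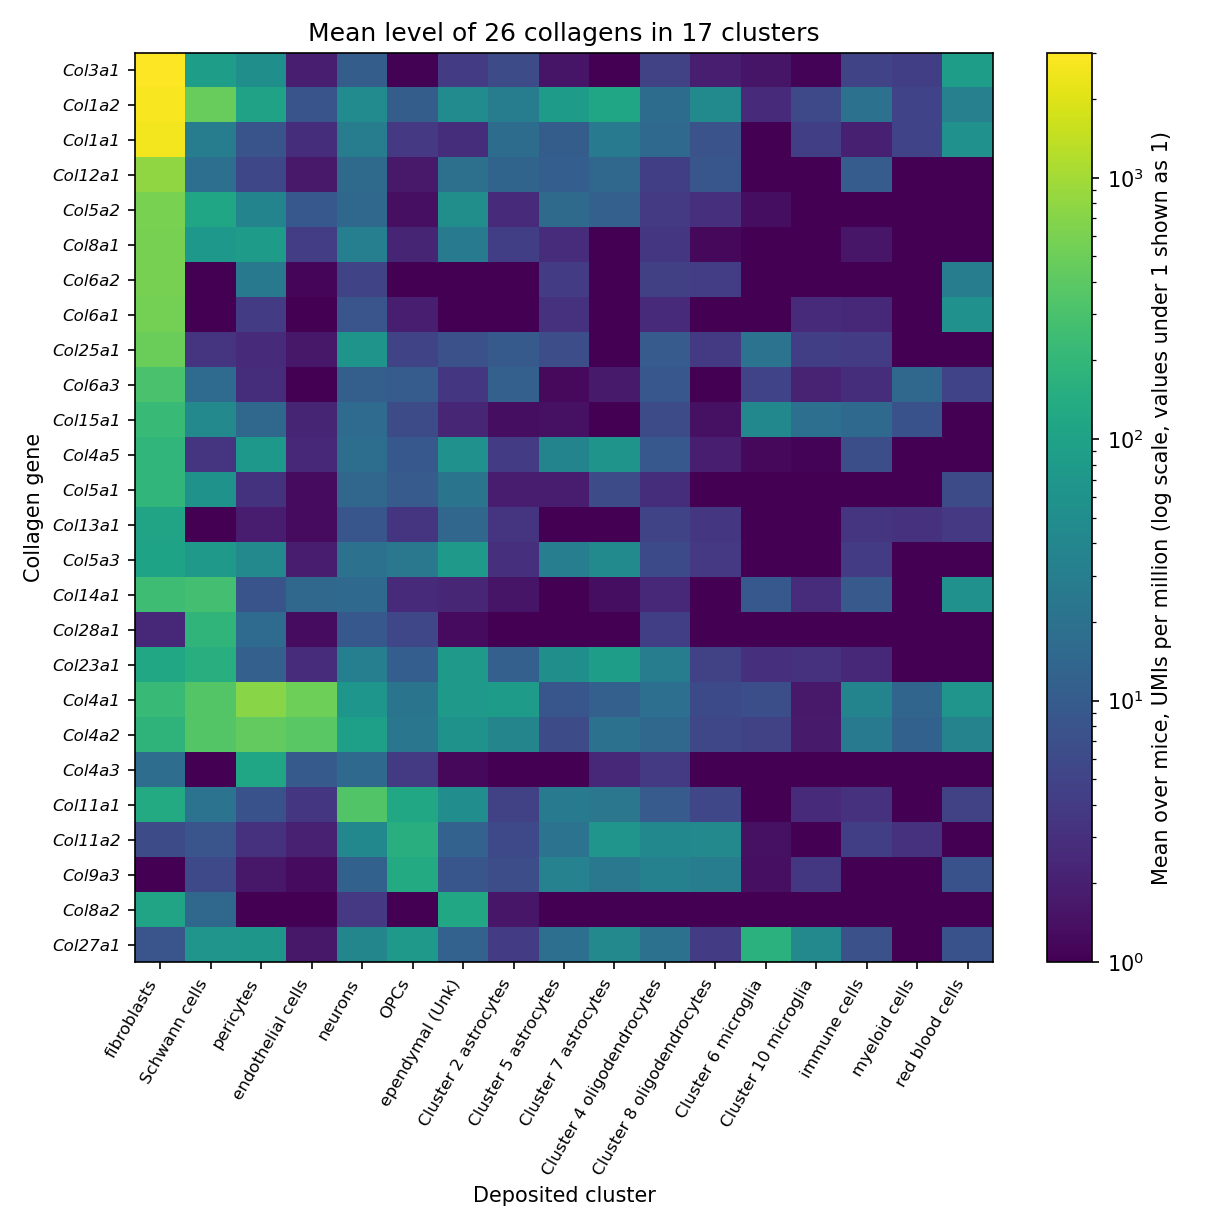
Mean level of 26 collagens (vertical axis) in the 17 deposited clusters (horizontal axis), as the mean over mice of CPM on a log colour scale, with values under 1 shown as 1. The fibroblast column is bright for fibrillar and beaded-filament genes, and Col4a1 and Col4a2 are bright in pericytes, endothelial cells and Schwann cells.

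The type of collagen differed between the clusters. Fibrillar genes, 11 of the 44, took 70.8% of the collagen UMIs in fibroblasts, the 6 beaded-filament genes of type VI 9.58% and the 9 fibril-associated (FACIT) genes 7.20%. Of the fibroblast collagen UMIs 77.6% are of cKO 7 d replicate 2, and without this mouse the shares were 48.5% fibrillar, 11.6% transmembrane, 11.3% beaded filament and 10.3% FACIT. In endothelial cells the 6 type IV genes took 88.7%. Pericytes stood between, with 69.2% type IV and 17.03% fibrillar. Schwann cells held 44.4% fibrillar, 22.8% type IV, 11.4% FACIT and 11.996% in the pair of genes outside these classes, Col26a1 and Col28a1, and without the same mouse, which has 103 of their 207 cells, 39.3%, 25.2%, 13.9% and 7.39%. Neurons (43.4% fibrillar, 16.95% FACIT) and OPCs (46.3% fibrillar, 36.8% FACIT) also had a large fibrillar share, which in them is mostly type XI rather than types I and III. The fibrillar share was also large in Cluster 6 microglia (66.8%), Cluster 10 microglia (49.4%) and Cluster 7 astrocytes (48.5%). Cluster 8 oligodendrocytes (45.8%) and Cluster 5 astrocytes (44.6%) followed.

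Of the 44 genes, 18 had their highest mean in fibroblasts, 6 in OPCs, 5 in neurons, 4 in pericytes, 4 in Schwann cells and 1 in endothelial cells. The other 6 were spread over Cluster 6 microglia (2), ependymal cells (2), Cluster 7 astrocytes (1) and Cluster 8 oligodendrocytes (1). The share of all genes with their highest mean in fibroblasts is not given. A mean of at least 100 CPM in some cluster was reached by 26 genes, 15 of them highest in fibroblasts. Of the remaining 18, 17 were under that level in each cluster with 75 UMIs or more in total, and Col10a1, the collagen of growth plate cartilage, had 20 UMIs.

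The 3 most abundant collagens in fibroblasts were the chains of the main scar fibrils. Col3a1, the chain of type III, had a lowest value of 387, a median of 2020 and a highest of 9399 CPM in the 9 mice, a mean of 2962 ± 3057. Col1a2, the minor chain of type I, ranged from 402 through a median of 1960 to 7627, a mean of 2746 ± 2449, and Col1a1, the major chain, from 268 through 1654 to 6111, a mean of 2636 ± 2325. The SDs are close to the means or above them, so the order of these 3 genes is not separated by the spread. Fibroblasts held 95.6% of all Col3a1 UMIs, 92.8% of Col1a1 and 82.1% of Col1a2, and without cKO 7 d replicate 2 84.9%, 73.1% and 52.9%. Col1a2 was thus less confined than Col1a1: it reached 459 ± 212 in Schwann cells (n = 5), 112 ± 49.5 in Cluster 7 astrocytes (n = 15) and 99.2 ± 51.5 in pericytes (n = 15), where Col1a1 read 29.0 ± 40.5, 27.6 ± 19.1 and 7.90 ± 15.7. Type I collagen is built of more Col1a1 than Col1a2 chains, while in the 9 fibroblast samples the UMIs of Col1a2 were 0.565 to 1.84 times those of Col1a1.

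Next in fibroblasts came genes whose products decorate or join fibrils. Col12a1, a FACIT that binds type I fibrils, read 804 ± 483 (SD, n = 9; lowest 184, median 682, highest 1696), and Col5a2, a chain of the type V core of fibrils, 597 ± 537 (lowest 104, median 298, highest 1606). Col8a1, a short chain collagen of vessel walls and membranes, read 579 ± 433 (lowest 184, median 509, highest 1587) and was higher in fibroblasts than in pericytes in 9 of 9 mice. The type VI chains Col6a2, Col6a1 and Col6a3, which assemble into beaded filaments, read 578 ± 305, 567 ± 350.1 and 301 ± 281, with 88.8%, 90.1% and 77.6% of their UMIs in fibroblasts, or 74.3%, 76.4% and 42.7% without cKO 7 d replicate 2. The other genes at 100 or more that were highest in fibroblasts were Col25a1 (492 ± 365), Col15a1 (225 ± 195), Col4a5 (196 ± 322), Col5a1 (195 ± 209), Col13a1 (108 ± 130), and Col5a3 (105 ± 89.4). Among these, Col4a5 is placed in fibroblasts by few mice: it was higher there than in pericytes in 3 of 9 mice, as was Col4a6, also in 3 of 9. The mean of Col4a5 leans on a value of 955, from 7 UMIs, in the low-depth cKO 1 d replicate 1. That of Col13a1 likewise leans on values of up to 367 at 1 d, from 5 UMIs in 3 mice. Fibroblasts hold 20% of the Col13a1 UMIs. Col14a1, a FACIT of the fibril surface, is given with the Schwann cells.

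Type IV collagen marked the vessel wall. Col4a1 and Col4a2, the chains of the basement membrane network of all vessels, were the most abundant collagens of pericytes and of endothelial cells. In pericytes Col4a1 ranged over the 15 mice from 499.54 through a median of 699 to 1077 CPM (mean 723 ± 152), and in endothelial cells from 351 through 473 to 784 (mean 505 ± 109). It was higher in pericytes in 15 of 15 mice. Col4a2 averaged 436 ± 152 in pericytes and 387 ± 85.9 in endothelial cells and was higher in pericytes in 11 of 15 mice, so the means differ by less than the spread. Col4a3 and Col4a4, chains of the specialised network known from the kidney glomerulus, were pericyte genes: Col4a3 read 115 ± 50.03 and Col4a4 67.0 ± 43.6 there (n = 15), against 9.78 ± 7.69 and 2.52 ± 2.13 in endothelial cells and 17.6 ± 22.3 and 24.04 ± 34.5 in fibroblasts (n = 9). Col4a3 was higher in pericytes than in fibroblasts in 9 of 9 mice and Col4a4 in 8 of 9. Of the other 3 collagens among the 5 most abundant in endothelial cells, Col6a6 was at 27.7 ± 26.1, Col18a1, the source of endostatin, at 14.6 ± 9.46 and Col14a1 at 14.5 ± 9.64. Pericytes had Col1a2 at 99.2 and Col8a1 at 84.5 ± 34.7.

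Schwann cells combined fibrillar, basement membrane and less common collagens. Their 5 leading genes were Col1a2 (459 ± 212; 240 to 699), Col4a1 (357 ± 222; 0 to 560.3), Col4a2 (351 ± 214; 204 to 731), Col14a1 (272 ± 186; 30.0 to 487) and Col28a1 (188 ± 164; 0 to 439), each over 5 mice. Col28a1, a collagen known from the Schwann cells of peripheral nerve, was near 0 in fibroblasts and was higher in Schwann cells than in pericytes, the next cluster, in 4 of 5 mice. Col14a1 and Col23a1, a membrane-spanning collagen at 155 ± 163, had their highest means in Schwann cells but exceeded the fibroblasts of the same mouse in 2 of 5 mice each, so neither cluster can be put above the other. Low counts limit these values, since WT 7 d replicate 1 has 13 Schwann cells and 0 UMIs of Col4a1, Col23a1 and Col28a1.

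Outside stroma and vessels a few genes had clear sites. Col11a1, a fibrillar chain of the type XI that is best known from cartilage, was highest in neurons, at 342 ± 238 (n = 15; lowest 78.6, median 291, highest 1057), which hold 69.9% of its UMIs, and was higher there than in fibroblasts in 6 of 9 mice. OPCs were highest for its partner Col11a2 (149.5 ± 67.5, n = 14; over Cluster 7 astrocytes in 13 of 14 mice) and for Col9a3, a FACIT chain of type IX (133 ± 86.6; over Cluster 5 astrocytes in 13 of 14). Cluster 6 microglia had Col27a1 at 166 ± 81.1 (n = 14), higher than OPCs in 12 of 14 mice. Col8a2 was shared by ependymal cells (122 ± 42.8, n = 10) and fibroblasts (106 ± 131, n = 9), with ependymal cells higher in 4 of 7 mice. For scale, Col3a1, a fibroblast gene, read 0.469 ± 1.82 in Cluster 7 astrocytes, the lowest cluster, and 10.5 ± 15.96 in neurons, 53.2 ± 36.1 in pericytes and 86.03 ± 172 in red blood cells (n = 4).

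Some neighbouring collagen genes share a cluster and others do not. All 44 matched a gene of GENCODE vM21 (mm10), on 15 chromosomes, with spans from 7105 bases (Col10a1) to 468377 (Col25a1), and 8 neighbouring pairs lie within 100000 bases. The 6 type IV genes form 3 pairs of opposite strands that start beside each other: Col4a1 and Col4a2 on chromosome 8 start 21 bases apart, Col4a4 and Col4a3 on chromosome 1 leave 71 bases between them, and Col4a6 and Col4a5 on chromosome X leave 1308. Col4a1 and Col4a2 are highest in pericytes and then endothelial cells, and Col4a3 and Col4a4 are highest in pericytes and low in endothelial cells. Col4a5 and Col4a6 have their highest means in fibroblasts and pericytes but differ elsewhere, with Col4a5 at 62.8 ± 26.0 in Cluster 7 astrocytes, 57.5 in ependymal cells and 36.7 in Cluster 5 astrocytes, against 2.00 ± 4.51, 2.36 and 0.576 for Col4a6. Col3a1 and Col5a2 lie 24614 bases apart on chromosome 1, and Col6a2 and Col6a1 85161 apart on chromosome 10, and both pairs are fibroblast genes. Col9a1 and Col19a1, 9205 bases apart, are not alike: Col9a1 was highest in OPCs (50.02 ± 41.5) and Col19a1 in neurons (60.4 ± 42.2). Nor are Col6a6, Col6a5 and Col6a4 on chromosome 9, with 27917 and 28810 bases between them: Col6a6 was highest in endothelial cells (27.7), Col6a5 in ependymal cells (12.9 ± 22.1) and Col6a4 in neurons (4.302 ± 6.51).

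Sequence before the start of 35 of the 44 genes is in the RefSeq table of promoters (mm10). The bases between Col4a4 and Col4a3 are shown because this stretch is all that separates the starts of the pericyte pair, and the 150 bases before Col3a1 because it has the highest mean of the collagens in fibroblasts, though not beyond the spread. Both are in lower case since neither holds the letters CCAAT or their reverse complement ATTGG, a frequent promoter motif.
Col4a4 to Col4a3, chr1:82586850-82586920, minus strand: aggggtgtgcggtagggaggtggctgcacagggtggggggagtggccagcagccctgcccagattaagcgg
Col3a1, chr1:45311388-45311537, plus strand: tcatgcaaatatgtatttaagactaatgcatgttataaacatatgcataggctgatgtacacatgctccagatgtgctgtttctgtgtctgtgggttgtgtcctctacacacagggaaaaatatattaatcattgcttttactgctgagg
In the 250 bases before the start, on both strands, CCAAT was found in 13 of 38 promoters of collagen genes (34.2%) and in 33.8% of all 32851 promoters of the table. GGGCGG, with its reverse complement CCGCCC, was found in 22 of 38 (57.9%) against 32.7% of all. These are descriptions of letters, and no binding was measured.

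In fibroblasts collagen levels stood low at 1 d, high at 7 d and low again at 14 d. The summed level was 19588 CPM in the single uninjured mouse with at least 10 fibroblasts. At 1 d it averaged 7896 (n = 3; 4017 to 12303), at 7 d 28850.5 (n = 2; 24002 and 33699) and at 14 d 9727 (n = 3; 6395 to 11967). The 7 d values lie above those of the other times without overlap. By the conditions in the cell names the 7 d mean was 22840 (n = 3; 10819 to 33699) and the 14 d mean 9181 (n = 2), and the 7 d mice then overlap with 1 d and 14 d. The 9 samples rest on 10 to 72 fibroblasts each, and their summed level of 6 fibroblast markers was 14161 uninjured, 18729, 7776 and 8391 at 1 d, then 13782 and 13679 at 7 d, and 11731, 9125 and 11157 at 14 d. The 4 mice highest in collagens were also the 4 highest in these markers, though in another order, and the cKO mice of 1 d were lowest in the markers. The sum joins Dcn and Mgp, which differ between fibroblasts. Pooled cells with at least 10 Col25a1 UMIs, described at the end, read 527 for Dcn and 9474 for Mgp. Cells with 0 Col25a1 UMIs read 9541 and 2481. The part of the mix of these cells in the time courses was not tested.

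Col14a1, which coats fibrils and lies on chromosome 15 (55307750 to 55520803, ENSMUSG00000022371.16), had the largest fold change of the 23 collagens tested at 7 d against 1 d in the fit of all 9 mice. It read 466 CPM in the uninjured mouse, then 0 in WT replicate 1, 0 in cKO replicate 1 and 14.9 in cKO replicate 2 at 1 d. At 7 d it read 509 in WT and 706 in cKO, and at 14 d 59.2 in WT and 257 and 248 in cKO. The gene was high in both mice at 7 d, above all mice of 1 d and 14 d. By the conditions in the cell names the mouse at 248 belongs to 7 d and lies below the 14 d mouse at 257. The values of 0 come from the low-depth libraries with 5446 and 7330 fibroblast UMIs, too few to set them below the 14 d mice, and only cKO 1 d replicate 2, with 67216, shows a low level. Pooled over mice, 713 UMIs at 7 d (701 CPM) stand against 1 UMI at 1 d (12.5 CPM), a ratio of 56.1 with an exact 95% counting interval of 10.0 to 2219, and against 138 UMIs at 14 d (208.5 CPM), a ratio of 3.36 (2.80 to 4.07). These intervals cover counting error and not the spread between mice.

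Of the fibrillar genes Col3a1, Col1a2, Col1a1 and Col5a2 were also highest at 7 d. Values are given in the order WT, cKO within each time, with the pair of cKO mice at 1 d and at 14 d by replicate. Col3a1 read 4452 in the uninjured mouse, 2020, 682 and 387 at 1 d, then 5920 and 9399 at 7 d, and 782, 2081 and 933 at 14 d. Col1a2 read 3392 uninjured, 2387, 955 and 402 at 1 d, then 5735 and 7627 at 7 d, and 874, 1960 and 1379 at 14 d. In both genes the pair of mice at 7 d was above all others and the 1 d and 14 d mice overlapped. By the conditions in the cell names the last 14 d mouse belongs to 7 d, and this separation is lost. Col1a1 read 4028 uninjured, 4223, 682 and 268 at 1 d, then 5503 and 6111 at 7 d, and 506, 1654 and 748 at 14 d. Here WT 1 d replicate 1, a low-depth library with 12 fibroblasts, sits near the uninjured mouse while the other 1 d mice are low. Col5a2 read 678 uninjured, 734, 136 and 104 at 1 d, then 1295 and 1606 at 7 d, and 230.03, 288 and 298 at 14 d, with the same split at 1 d.

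**Figure D2:**
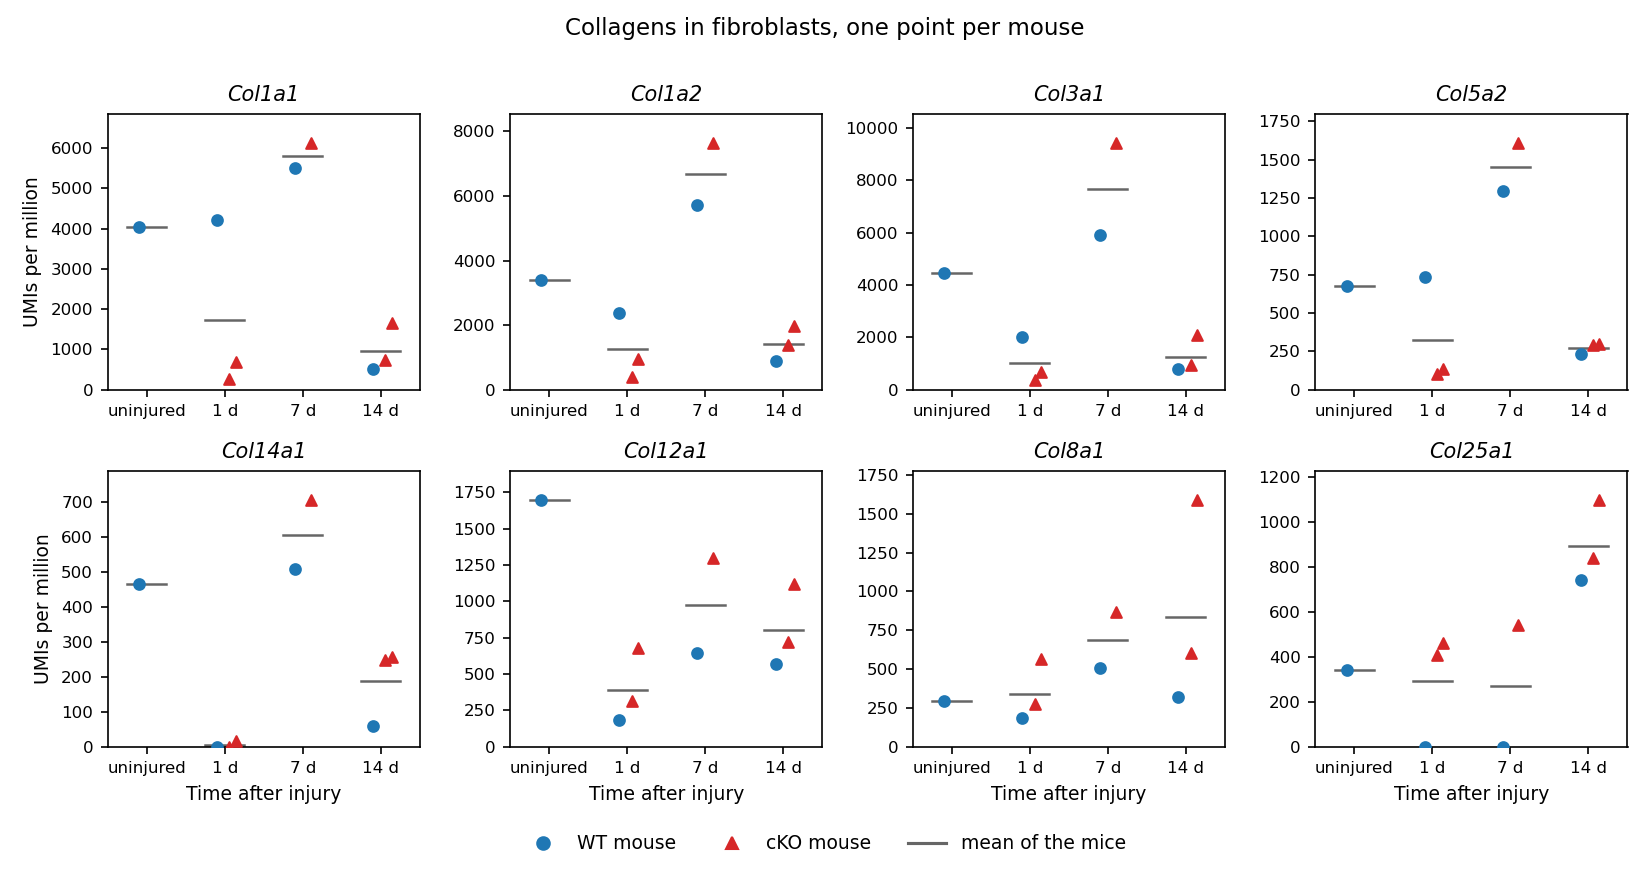
CPM (vertical axis) of 8 collagens in the fibroblasts of each mouse with at least 10 fibroblasts, by time after injury (horizontal axis), with blue circles for WT, red triangles for cKO and grey bars for the mean of the mice. By the sample titles the mice at 7 d are above all others for Col1a2, Col3a1, Col5a2 and Col14a1, and the mice at 14 d are for Col25a1.

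Other fibroblast collagens had other courses. Col12a1 was highest in the uninjured mouse (1696) and read 184, 682 and 312 at 1 d, then 647 and 1299 at 7 d, and 572, 719 and 1122 at 14 d. Col8a1 read 297 uninjured, 184, 273 and 565 at 1 d, then 509 and 867 at 7 d, and 322, 605 and 1587 at 14 d, so that its injured groups overlap. Col25a1, a membrane-spanning collagen first known from amyloid plaques, read 339 uninjured, 0, 409 and 461 at 1 d, then 0 and 542 at 7 d, and 743, 1095 and 838 at 14 d. It was thus highest in all 3 mice at 14 d, where Col3a1, Col1a1, Col1a2 and Col5a2 were low. By the conditions in the cell names the mouse at 838 belongs to 7 d and lies above the 14 d mouse at 743, so this separation is lost. The cells high in Col25a1, described at the end, read low for Dcn and high for Mgp.

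The test of 7 d against 1 d called Col14a1. Comparisons of injured times with each other were chosen after seeing the data, since the planned ones need more uninjured mice than have 10 fibroblasts. On UMIs summed per mouse, with time and genotype as terms and p-values adjusted over all genes by Benjamini-Hochberg, edgeR's quasi-likelihood test gave Col14a1 a log2 fold change of 6.08 (SE 1.22, adjusted p = 0.0138, 2 mice against 3), and Col14a1 rose in that sense. It was the only collagen of the 23 that passed the filter on low counts to be called at an adjusted p under 0.05, where 0.17% of the 4113 genes tested were called. Of the 23 collagens 13 had an unadjusted p under 0.05 against 7.78% of all genes, 19 of the 23 fold changes were positive, and their median log2 value was 2.04 against 0.23 for all genes. The next by p were Col5a1 (4.09, SE 1.03, adjusted p = 0.105), Col3a1 (3.83, SE 0.98, adjusted p = 0.105), Col5a2 (3.23, SE 0.85, adjusted p = 0.112) and Col1a2 (3.38, SE 0.94, adjusted p = 0.147), while Col1a1 had 3.01 (SE 0.97, adjusted p = 0.229). DESeq2 called 4 collagens (0.34% of genes), Col3a1, Col1a2, Col5a2 and Col6a1, and gave Col14a1 no adjusted p. By the values themselves, with the times of the sample titles, 11 of the 23 collagens were higher in both mice at 7 d than in all 3 at 1 d, where 10.5% of all genes were, and 0 were lower, where 5.28% of all genes were.

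How many collagens are called at 7 d against 1 d depends on the libraries. Without the 4 low-depth libraries, which leaves 6 mice, 12 of 28 collagens were called, 11 of them higher, where 3.69% of 6310 genes were called. Only 14 d keeps more than 1 mouse there, so the single residual degree of freedom comes from the pair of cKO mice at 14 d. Col14a1 had a log2 fold change of 5.44 in this fit (adjusted p = 1.01e-05), Col5a2 3.85, Col1a1 4.42, Col5a1 4.40, Col3a1 4.51 and Col1a2 4.16, and the collagen that fell was Col23a1 (-2.79). Leaving out cKO 1 d replicate 1 or cKO 7 d replicate 2 ended the call of Col14a1 (adjusted p = 0.0732 and 0.0700, range over 18 alternatives 1.01e-05 to 1), with log2 values of 5.801 and 6.90. So did a minimum of 5 cells, which brings in 3 more mice (5.50, adjusted p = 0.167 by edgeR). At that minimum Col14a1 was called by DESeq2, by the conditions in the cell names, and without WT or cKO uninjured replicate 2. Leaving out WT 1 d replicate 1 gave 7 collagens (0.739% of 5821 genes) and leaving out WT 14 d replicate 1 gave 4 (0.494% of 2227). With the replicate number, which equals the deposited batch, as a block, Col14a1 had 6.11 (adjusted p = 0.0139) and within batch 1 alone 9.62 (adjusted p = 1), and batch 2 alone, with a single mouse at each time, could not be fitted.

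At 14 d Col3a1, Col1a1, Col1a2, Col5a1 and Col5a2 were lower than at 7 d in the values, and edgeR called no collagen. Of the 23 collagens 9 were lower in all 3 mice at 14 d than in both at 7 d, where 12.3% of all genes were, among them these 5 and Col14a1. Col25a1 and Col23a1 were higher in all 3, where 8.17% of genes were. These counts follow the sample titles. By the cell names cKO 14 d replicate 2 belongs to 7 d, and then Col3a1, Col1a1, Col1a2, Col14a1 and Col25a1 overlap. edgeR's test called 0 of 23 collagens (0.0243% of 4113 genes), 10 had an unadjusted p under 0.05 (3.62% of genes), and DESeq2 called 1, Col5a2 (0.0243% of genes). The log2 fold changes were -2.48 for Col3a1 (SE 0.91), -2.35 for Col1a1 (SE 0.92), -2.12 for Col1a2 (SE 0.88), -2.24 for Col5a2 (SE 0.73) and -1.89 for Col14a1 (SE 0.72), with a median of -0.74 over the 23 against 0.11 for all genes. Col25a1 had 2.06 (SE 0.94) and Col23a1 2.54 (SE 0.82). Without the 4 low-depth libraries 11 collagens were called, 3 of them higher, where 1.74% of 6310 genes were, and without cKO 1 d replicate 2 there were 3 (Col23a1, Col5a2 and Col5a1; 0.546% of 5673 genes).

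Against uninjured cord the fibroblasts could be tested only with a lower minimum of 5 cells, chosen after seeing the data, since 1 uninjured mouse reaches 10. That fit holds 12 mice, 1677 genes and 21 collagens. edgeR's test called 0 collagens at 1 d, 7 d and 14 d (0% of genes each). An unadjusted p under 0.05 was reached by 8 collagens at 1 d (6.92% of genes), 0 at 7 d (4.05%) and 6 at 14 d (8.41%), and DESeq2 called 1, 0 and 0, the 1 being Col3a1. Col3a1 had a log2 fold change of -3.05 at 1 d (SE 0.98), -0.09 at 7 d (SE 0.92) and -2.43 at 14 d (SE 0.85), and Col14a1 -5.65 (SE 1.34), -0.15 (SE 0.80) and -1.90 (SE 0.76). The medians over the 21 collagens were -1.90, 0.25 and -0.66, against 0.08, 0.16 and 0.31 over all genes.

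Between Ryk cKO and WT no collagen passed the test in fibroblasts. In the injured mice the summed level was 14233 CPM in WT (n = 3) and 13574 in cKO (n = 5). Col1a1 averaged 3411 ± 2596 in WT (n = 3; 506 to 5503) and 1893 ± 2412 in cKO (n = 5; 268 to 6111), Col1a2 2999 ± 2487 and 2465 ± 2942, and Col3a1 2907 ± 2681 and 2697 ± 3802. The ranges overlap for all 3 genes. Their log2 fold changes were -0.34 (SE 0.81), 0.18 (SE 0.76) and 0.27 (SE 0.78), opposite in direction to the means for Col1a2 and Col3a1, which are not matched for time, and without the 4 low-depth libraries 1.02, 0.71 and 0.72, so that the sign for Col1a1 reversed. At the same time Col1a1 was higher in WT at 1 d (4223, a low-depth library, against 682 and 268) and lower in WT at 7 d (5503 against 6111) and at 14 d (506 against 1654 and 748). edgeR's test called 0 of 23 collagens (0% of 4113 genes) and DESeq2 0. Those with an unadjusted p under 0.05 were 4, Col15a1 (1.94, SE 0.80), Col25a1 (1.68, SE 0.82), Col8a1 (1.58, SE 0.73) and Col11a1 (1.79, SE 0.81), against 3.48% of genes. The median over the 23 was 0.90 against 0.20 for all genes. Without the 4 low-depth libraries 4 of 28 collagens were called higher in cKO, Col15a1 (2.32), Col4a5 (2.60), Col4a6 (3.03) and Col14a1 (1.87), where 6.48% of 6310 genes were called. That fit has a single residual degree of freedom, and Col15a1 read 72.3 in the WT mouse and 500.4 and 347 in the cKO mice at 14 d, but 139 in WT and 175 in cKO at 7 d.

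In endothelial cells Col4a2 stood apart at 1 d. It read 319.8 and 334 in WT and 315 and 310.2 in cKO uninjured mice, 523 in the WT mouse and 511 and 544 in the cKO mice of 1 d, and, WT mice first, 333, 421, 347 and 323 at 7 d and 483, 364, 304 and 369.7 at 14 d. All 3 mice at 1 d were above all 12 others by the sample titles. The share of all endothelial genes so separated is not given. WT 1 d replicate 1 and cKO 1 d replicate 1 are low-depth libraries that share 69 barcodes. By the conditions in the cell names the mouse at 421 belongs to 1 d and lies below a 14 d mouse, so this separation is lost, and the log2 fold change is 0.49. Col4a1 read 479, 457, 399 and 422 uninjured and 648, 461 and 784 at 1 d, with cKO 1 d replicate 1 inside the uninjured range. The log2 fold changes at 1 d were 0.59 (SE 0.23) for Col4a2 and 0.39 (SE 0.27) for Col4a1, and Col4a2 had 0.67 within batch 1, 0.61 within batch 2, which has a single 1 d mouse, and 0.62 with the replicate block. It did not pass the adjustment in edgeR's test (adjusted p = 0.843, higher in 3 of 3 mice, range over 26 alternatives 0.133 to 1). At 7 d against 1 d, a comparison seen afterwards, edgeR called 0 of the 6 collagens (0.174% of genes) with -0.70 for Col4a2, and DESeq2 called Col4a2 (1.68% of genes). Within batch 2 Col4a2 (-0.79) and Col4a1 (-0.81) were called lower at 7 d, in a fit that called 26.7% of 11260 genes and sets 2 mice against that single mouse, with its spread taken from the other times. Against uninjured cord the 6 collagens tested gave 0 calls at 1 d (0.0544% of 9186 genes), 7 d (0%) and 14 d (0%). The number with an unadjusted p under 0.05 was 2 at 1 d (5.54% of genes), 0 at 7 d (11.5%) and 1 at 14 d (9.94%), and DESeq2 called 0 at each time.

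Col18a1 was low in endothelial cells at 14 d. With WT mice before cKO mice at each time, it read 24.3, 6.23, 23.04 and 35.6 in uninjured mice, 17.1, 9.92 and 12.8 at 1 d, then 23.8, 24.1, 9.90 and 7.81 at 7 d, and 8.53, 7.98, 5.83 and 2.63 at 14 d. WT uninjured replicate 2 falls among the 14 d mice, so the groups overlap. The log2 fold change at 14 d was -2.17 (SE 0.52), and edgeR's test gave an adjusted p of 0.420 (lower in 4 of 4 mice than in 3 of 4 uninjured mice, range over 24 alternatives 0.00214 to 1.0). Within batch 2 the value was -2.48 and Col18a1 was called there, together with Col1a1, Col1a2 and Col5a2, in a fit that called 23.9% of 11260 genes. Within batch 1 it did not pass the filter. With the replicate block it was -2.17, by the conditions in the cell names -0.92, and without cKO uninjured replicate 2 -1.38.

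**Figure D3:**
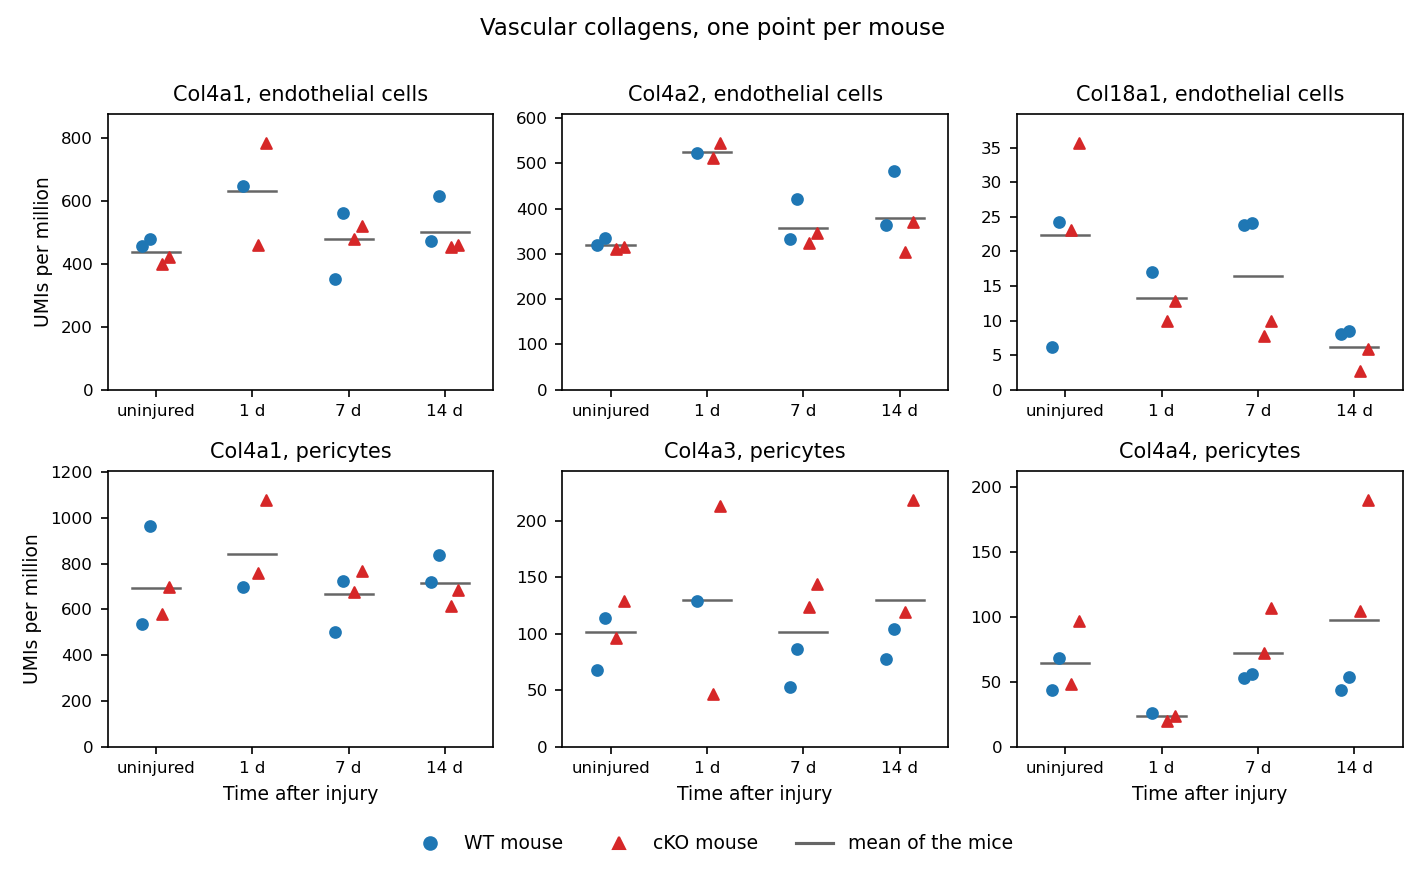
CPM (vertical axis) of Col4a1, Col4a2 and Col18a1 in endothelial cells and of Col4a1, Col4a3 and Col4a4 in pericytes, for each mouse, by time after injury (horizontal axis), with blue circles for WT, red triangles for cKO and grey bars for the mean of the mice. By the sample titles endothelial Col4a2 is at 511 to 544 at 1 d, above all other mice. Pericyte Col4a4 is at 20.1 to 25.9 at 1 d, below all other mice by the same titles.

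Between genotypes the endothelial collagens did not separate. The summed level in injured mice was 1089 in WT and 1066 in cKO. edgeR's test called 0 of 6 collagens (0% of 9186 genes), with 0 at an unadjusted p under 0.05 (1.33% of genes) and 0 by DESeq2, and the log2 fold changes of Col4a1 and Col4a2 were -0.08 (SE 0.18) and -0.15 (SE 0.16).

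In pericytes no collagen passed the test against uninjured cord. Col4a1 averaged 695 ± 194 in 4 uninjured mice, 845 ± 204 in 3 at 1 d, 667 ± 118 in 4 at 7 d and 714 ± 92.2 in 4 at 14 d, and Col4a2 409 ± 109, 454 ± 256, 396 ± 159 and 490 ± 141, and all times overlap. edgeR's test called 0 of 11 collagens at 1 d, 7 d and 14 d (0% of 4696 genes each). With an unadjusted p under 0.05 stood 1 at 1 d (3.66% of genes), 0 at 7 d (3.6%) and 0 at 14 d (4.39%), and DESeq2 called 0. The gene at 1 d was Col4a4, chosen for description after its values were seen. It read 43.3 and 68.2 in WT and 96.7 and 48.1 in cKO uninjured mice, and 25.9, 23.7 and 20.1 at 1 d, on 5 UMIs in all. By the sample titles the 1 d mice thus lie below the others at very low counts (log2 fold change -1.77, SE 0.66). In the cell names WT 7 d replicate 2 belongs to 1 d and lies above the uninjured mouse at 43.3, so this separation is lost. Within batch 2, with a single 1 d mouse, the fold change of Col4a4 was -1.88, with the replicate block -1.74 and by the conditions in the cell names -0.64. Within batch 1 the gene did not pass the filter.

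The same gene had the smallest p between genotypes. At 7 d Col4a4 read 52.6 and 56.2 in WT and 72.3 and 107 in cKO, and at 14 d 43.4 and 53.4 in WT and 190 and 104 in cKO. The cKO mice were above the WT mice at both times, and not at 1 d. Its neighbour Col4a3 read 52.6 and 86.9 in WT against 145 and 124 in cKO at 7 d, and 78.1 and 104.5 against 218 and 119 at 14 d. Over the injured mice Col4a4 averaged 46.3 ± 12.4 in WT (n = 5) and 86.1 ± 63.1 in cKO (n = 6), and Col4a3 90.3 ± 28.8 and 144 ± 64.5. The log2 fold changes were 1.01 (SE 0.30) and 0.53 (SE 0.27). edgeR's test called 0 of 11 collagens (0% of 4696 genes), with 1 at an unadjusted p under 0.05 (2.21% of genes) and 0 by DESeq2, and Col4a4 did not pass the adjustment (adjusted p = 1.0). Within batch 2 its value was 0.74, with the replicate block 1.01 and by the conditions in the cell names 0.66. The summed smooth muscle markers of the pericytes ranged from 96.7 to 9944 CPM between mice, with 7913 in cKO 14 d replicate 1 (the highest Col4a4) and 9944 in WT 14 d replicate 1, and their part in the collagen levels was not tested.

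Whether injury acted differently in the genotypes was tested in the vascular cells, where all 8 groups have a mouse. The interaction of injury and genotype was called for 0 of 13 collagens in pericytes and 0 of 10 in endothelial cells by edgeR's test (0% of 6876 and 0% of 10985 genes). Unadjusted p was under 0.05 for 0 (3.59% of genes) and 1 (3.21%), the latter Col18a1 (log2 difference -1.97, SE 0.75), and DESeq2 was not run for it.

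Schwann cells reached 10 in 5 mice, none of them uninjured. The summed level was 1709 in the cKO mouse of 1 d (18 cells), 1948 in WT (13 cells) and 3813 in cKO (103 cells) of 7 d, and 3011 in the WT and 2537 in the cKO mouse of 14 d. In the same order Col1a2 read 240 at 1 d, then 244 and 699 at 7 d, and 621 and 494 at 14 d, and Col14a1 30.0 at 1 d, then 487 and 207 at 7 d, and 430.2 and 204 at 14 d. The single mouse at 1 d was the lowest for both genes, for Col1a2 by a small margin under the WT mouse at 7 d. The fit of these 5 mice leaves a single residual degree of freedom. Its spread comes from the 7 d and 14 d mice, so 0 calls at 7 d against 1 d decide nothing. Of 6 collagens and 1012 genes tested, edgeR called 0 collagens at 7 d against 1 d (0.494% of genes), 0 at 14 d against 7 d (0.0988%) and 0 for cKO against WT (0.0988%), with 0 at an unadjusted p under 0.05 in each (6.23%, 1.09% and 4.05% of genes) and 0 by DESeq2. Against uninjured mice, with at least 5 cells and 3 collagens of 358 genes, it called 0 at 1 d, 7 d and 14 d (0% each), with 0 at an unadjusted p under 0.05 (0.838%, 3.63% and 7.54% of genes) and 0 by DESeq2. Col28a1 had a log2 fold change of 1.59 (SE 1.07) for cKO against WT, from 0 in WT and 439 in cKO of 7 d, 143 in WT and 238 in cKO of 14 d, and no WT mouse of 1 d.

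Against uninjured cord and between genotypes, glia and neurons gave no called collagen, and in immune cells none passed the filter, so none was tested. Comparisons between injured times are not in this count. Over 7 classes and 22 comparisons, 161 tests of a collagen gave 0 calls by edgeR (0.304% of 137993 gene tests), 15 at an unadjusted p under 0.05 (6.18%) and 0 by DESeq2. The smallest p values, chosen after they were seen, were those of neurons at 14 d against uninjured. Col26a1 averaged 20.7 ± 8.14 in 4 uninjured mice and 51.4 ± 4.82 in 4 at 14 d (ranges 9.89 to 28.9 and 47.4 to 57.2), and Col24a1, a fibrillar chain, 19.6 ± 12.8 and 53.3 ± 10.6 (4.92 to 34.6 and 39.6 to 63.7). By the sample titles these ranges do not overlap, on 21 and 18 UMIs in the uninjured mice. The share of all neuron genes so separated is not given. The log2 fold changes were 1.27 (SE 0.37) and 1.46 (SE 0.44). They did not pass the adjustment in edgeR's test (adjusted p = 0.0931 and 0.101). Col11a1 had 0.99 (SE 0.37) and Col23a1 1.13 (SE 0.40) there, while Col1a1 was lower (-1.68, SE 0.73). Of the 15, 6 were in astrocytes, with the largest fold changes at 1 d: Col11a2 -2.27 (SE 0.73), Col12a1 2.34 (SE 0.80) and Col16a1 2.14 (SE 0.64). In microglia at 1 d Col27a1 had -1.19 (SE 0.51) and Col15a1 -1.41 (SE 0.62), and 2 were in oligodendrocytes. These classes join clusters. Within Cluster 6 microglia Col27a1 read 66.2 to 233 uninjured and 84.0 to 91.6 at 1 d, so the times overlap. Col15a1 there read 47.3 to 47.4 uninjured and 0 to 45.8 at 1 d, on 7 UMIs. The part of a shift between joined clusters was not tested.

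Collagen chains need helpers to fold, leave the cell and join. Of 31 genes of folding, modification and processing, 19 had their highest mean in fibroblasts, where Serpinh1, the collagen chaperone, read 699.7 ± 451 (n = 9), Pcolce, which aids trimming of procollagen, 543 ± 269 and Ppib, a proline isomerase, 383 ± 253. Of 10 collagen receptors 5 were highest in fibroblasts, with Itgb1 at 496 ± 170 and Mrc2, which takes up collagen, at 344 ± 142. Of 12 partners of the fibrillar matrix 9 were highest there, with Dcn at 6075 ± 5199, Fn1 at 1926 ± 1438 and Bgn at 931.5 ± 556. The 12 partners of the basement membrane were spread, 4 highest in pericytes, 3 in endothelial cells, 3 in Schwann cells and 2 in fibroblasts, where Sparc read 2743 ± 1712. No share over all genes stands beside these counts. In fibroblasts at 7 d against 1 d edgeR called 0 of the 20, 5, 8 and 10 genes tested from these lists (0.17% of all genes). An unadjusted p under 0.05 was found for 6 processing genes, 1 receptor, 1 basement membrane partner and 5 fibrillar partners (7.78% of all genes), with median log2 fold changes of 1.03, 0.83, 0.96 and 1.84 against 0.23 for all genes. The smallest p values, chosen after they were seen, were those of Fbn1, the microfibril protein fibrillin (3.91, SE 1.02), and of the cross-linking enzymes Loxl2 (4.32, SE 1.26) and Lox (4.02, SE 1.31). At 14 d against 7 d the medians were -0.74, -0.08, 0.11 and -0.92, where 4, 0, 1 and 1 of the genes had an unadjusted p under 0.05 (3.62% of all genes). For cKO against WT 2, 0, 0 and 0 had (3.48%).

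Outside fibroblasts 8 of 987 tests of list genes were called by edgeR, 7 of 96 in microglia, 1 of 33 in immune cells and none in vascular or Schwann cells. In microglia 2.3% of all genes were called at 1 d, 0.354% at 7 d, 1.74% at 14 d and 5.58% at 7 d against 1 d, and in immune cells 0.251% at 7 d against 1 d. In microglia Fn1, which encodes fibronectin, rose against uninjured cord at 1 d (log2 fold change 7.51, adjusted p = 0.000557), 7 d (6.56, adjusted p = 0.00474) and 14 d (6.33, adjusted p = 0.00252). The class joins Clusters 6 and 10, and Cluster 10 held 9.98% to 27.1% of its UMIs in the 3 uninjured mice with at least 10 cells of each and 30.8% to 60.6% in such injured mice. Within Cluster 6 Fn1 read 0 to 9.45 uninjured and 214 to 315 at 1 d, overlapping at 7 d and 14 d, and within Cluster 10 it read 0 uninjured and 191 to 1251, 315 to 770 and 142 to 561 at 1 d, 7 d and 14 d. For the other called genes of this class the values within each cluster follow below, and the part of a shift between the clusters was not tested. At 1 d Tgfbi, a collagen-binding matrix protein, also rose in microglia (2.61, adjusted p = 0.0285), as did P4hb, a subunit of prolyl hydroxylase (1.32, adjusted p = 0.0273). At 7 d against 1 d, P3h2, another prolyl hydroxylase, rose in microglia (1.32, adjusted p = 0.0299), Tgfbi fell (-1.81, adjusted p = 0.0191), and Thbs1 fell in immune cells (-5.16, adjusted p = 0.0152). Within Cluster 6 P4hb read 63.2 to 104 uninjured and 153 to 336 at 1 d. P3h2 there read 86.7 to 210 at 1 d and 308 to 363 at 7 d. Tgfbi overlapped between these times in Cluster 6. Within Cluster 10 P4hb read 38.9 to 255 uninjured and 268 to 406 at 1 d, and P3h2 overlapped between 1 d and 7 d. Tgfbi in Cluster 10 read 0 uninjured, 61.8 to 530 at 1 d and 34.7 to 64.2 at 7 d.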

How the data were processed

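The authors deposited raw UMI counts of 18203 cells with a table that gives percent mitochondrial UMIs, batch, cluster and condition of each cell. They had aligned reads with Cell Ranger to mm10, kept cells with under 25 percent mitochondrial UMIs and more than 200 genes, and integrated and clustered the cells with Seurat (R 4.1.2), Harmony and Leiden at resolution 0.5. Doublets and free RNA were not removed here, and columns of values per sample that were not used number 0.

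Conditions were taken from the sample titles and clusters from the deposited table. UMIs were summed per mouse and cluster, with the clusters of astrocytes, of oligodendrocytes and of microglia joined for the tests, and a mouse entered a cluster with at least 10 cells. Levels are CPM of the summed UMIs, averaged over mice, with the SD between mice. Tests used edgeR 4.0.16 (TMM scaling, filterByExpr, quasi-likelihood) with time and genotype as additive terms, Benjamini-Hochberg adjustment over all genes tested and a threshold of 0.05 on the adjusted p, and DESeq2 1.42.0 beside it. The mouse was the replicate. Comparisons of clusters are descriptions without a test. The code ran in Python 3.11.15 (numpy 2.4.6, pandas 2.3.3, scipy 1.17.1, matplotlib 3.10.9) and R 4.3.3, and the edgeR fit was tested on simulated data.

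Genes were named by a rule: each collagen called in a test, each with a mean of at least 100 CPM in some cluster, and the 5 most abundant of fibroblasts, pericytes, endothelial cells and Schwann cells. Collagens named outside it (Col4a4, Col4a6, Col6a4, Col6a5, Col9a1, Col10a1, Col16a1, Col19a1, Col24a1 and Col26a1) were chosen after their values were seen. The collagens and the lists of 31 folding and processing genes, 10 receptors, 12 basement membrane partners and 12 fibrillar matrix partners were chosen with earlier results from these data known. Positions were taken by symbol from GENCODE vM21 and upstream sequence from a RefSeq table.

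Replicate numbers equal the deposited batch in all 16 mice. Deviations from the group mean, compared over 4324 genes between the 21 pairs of 7 groups, had correlations with a lowest of -0.44, a median of 0.14 and a highest of 0.67, with 12 over 0.1, so a fit with the replicate number as a block was run as an alternative.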

Additional observations from a re-analysis of the deposited data

Results flagged for a closer look

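Single mice stood apart in 4 of the 36 groups of 4 mice that were searched, where a share of 5 percent would be flagged by chance. In endothelial cells at 14 d, WT 14 d replicate 1 had 1225 CPM over all collagens against 910 to 935 in the other 3 mice (gap over range 0.92), and 616 against 455 to 473 for Col4a1 (0.886). In pericytes of uninjured cord, WT uninjured replicate 2 had 2479.7 over all collagens against 1657 to 1772 (0.86). In pericytes at 7 d, WT 7 d replicate 1, a low-depth library, had Col4a2 at 158 against 458 to 488 (0.909). The cause was not tested.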

How the results depend on the processing

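Counts of called collagens were repeated under alternatives, some planned and some chosen after seeing the data. The comparisons between injured times, and those with at least 5 cells, were among those chosen after seeing the data. In fibroblasts a minimum of 20 cells leaves a single mouse at 1 d, as does leaving out the low-depth libraries. The spread of those fits comes from the other times. In fibroblasts at 7 d against 1 d, where 1 was called, 10 of 19 alternatives gave another count: 4 by DESeq2, 3 without the filter on low counts (21 of 21695 genes), 0 with at least 5 cells, 4 with at least 20 cells (34 of 6423), 12 without the 4 low-depth libraries, 0 within batch 1, and 0 to 7 with a single mouse left out (4 without WT 14 d replicate 1, 7 without WT 1 d replicate 1, 0 without cKO 1 d replicate 1 and 0 without cKO 7 d replicate 2). At 14 d against 7 d, where 0 were called, the counts were 1 by DESeq2, 1 without the filter (Col6a5; 19 of 21695 genes), 11 without the low-depth libraries and 0 to 3 with a mouse left out, the 3 without cKO 1 d replicate 2. For cKO against WT they were 0 apart from 4 without the low-depth libraries, and 1 (Col15a1) without these libraries and with at least 5 cells. At 1 d against uninjured with at least 5 cells DESeq2 gave 1 (11 of 1677 genes). The same comparisons with at least 10 cells were not run in fibroblasts and Schwann cells, since too few uninjured mice reach it.

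In vascular cells against uninjured cord, and between genotypes, the counts were 0 apart from within batch 2, with 1 in pericytes at 14 d (Col1a2, -1.42; 269 of 6127 genes), 1 in endothelial cells at 7 d (Col14a1, 2.29; 2783 of 11260 genes) and 4 in endothelial cells at 14 d (2696 of 11260), and without the filter, with 1 in endothelial cells at 14 d (Col18a1; 185 of 27908). At 7 d against 1 d, 1 was called in endothelial cells by DESeq2 (Col4a2), and within batch 2, with a single 1 d mouse, there were 4 in endothelial cells (Col16a1, Col4a1, Col4a2 and Col4a3; 3003 of 11260 genes) and 1 in pericytes (Col5a3; 379 of 6127). Schwann cells gave 0 throughout, where 7 d against 1 d rests on a single mouse at 1 d. In the other classes 9 of 936 tests were called without the filter (6 in neurons at 14 d), where 2124 of 622014 tests of all genes were. In fits with a replicate block, Col14a1 in fibroblasts stayed called (6.11) and no other call changed. The sign of Col25a1 for cKO against WT in fibroblasts reversed with at least 5 cells (-0.0482), and that of Col1a1 without the low-depth libraries (1.02). The cause of these changes was not tested.

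The number of collagens highest in fibroblasts, 18, became 20 with means over cells, 21 with at least 20 cells, 20 without the low-depth libraries and 18 to 20 with a mouse left out. The summed fibroblast level at 7 d, 28850.5, was 23369 as a mean over cells, 22840 by the conditions in the cell names, 24002 in batch 1 and 33699 in batch 2.

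Few mice and few fibroblasts per mouse limit the time courses, the 7 d values of fibroblasts come from 2 mice, RNA levels do not give protein, and the yield of fibroblasts on dissociation was not measured.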

Other observations

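Col25a1 in fibroblasts sat in few cells. Of the 267 fibroblasts 60 had a Col25a1 UMI, and 23 cells with at least 10 UMIs, from 6 mice, held 89.7% of them. Pooled, these 23 cells read 698 CPM for Col1a1, 614 for Col3a1, 964 for Col1a2, 1459.5 for Col8a1 and 527 for Dcn, with Mgp, a matrix protein that limits calcification, at 9474. The 207 fibroblasts without a Col25a1 UMI read 5779 for Col1a1, 9171 for Col3a1, 7323 for Col1a2, 618 for Col8a1, 9541 for Dcn and 2481 for Mgp. Col14a1 read 25.3 in the 23 cells and 731 in the 207, and Slc6a13, a meningeal fibroblast gene, 2.11 and 164. The 37 cells with 1 to 9 UMIs read 1283.5 for Col1a1, 899 for Col3a1, 583 for Col8a1 and 9407 for Mgp, so Col8a1 is high in the 23 cells alone. The groups differ in mouse and time: of the 23 cells 3, 2, 6 and 2 come from the 4 mice of 14 d, 9 from cKO 7 d replicate 2 and 1 from cKO 1 d replicate 2. The pooled values of the 207 weigh each mouse by its UMIs. The 23 cells also have a median of 18580 UMIs against 1624 in the 207, so they are the deeper cells, and the groups were formed after the values were seen, without a test.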
